A study of Homo sapiens with 6 samples.

Results

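The 29 genes described here encode the machinery of RNA polymerase III: 10 subunits of the enzyme, transcription factor TFIIIA, 3 genes of TFIIIB, 6 of TFIIIC, 5 of the snRNA-activating complex SNAPc, the repressor MAF1, and 3 proteins that bind or modify the RNA products. They were listed by function, whatever their values, their transcripts were collected by annotation, and they make up 29 of the 26409 genes for which transcript values could be summed. RNA was sequenced from SUM1315, an established human line of triple-negative breast cancer cells, labelled wild type. Cells spent 24 h in 21% oxygen (normoxia, 3 libraries) or 24 h in a chamber with 1% oxygen (hypoxia, 3 libraries). All 6 libraries came from this single line, grown with serum, insulin and EGF, and the labels name no other treatment. Whether the 3 libraries of a group came from separate cultures is not stated, and the p-values cover the spread among these 6 libraries only, part or all of which may be technical.

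RNA polymerase III makes short RNAs that every growing cell needs, among them transfer RNAs, 5S ribosomal RNA, U6, 7SK and the RNA of the signal recognition particle. It is brought to most of its genes by TFIIIC, which binds inside the gene and places TFIIIB upstream of the start; 5S genes also need TFIIIA, and U6-type genes use SNAPc instead of TFIIIC. Its output follows growth signals, and MAF1, held back by the kinase mTOR in fed cells, shuts the enzyme down under stress.

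Levels are given in RPKM, reads normalised to transcript length and sequencing depth, summed over the transcripts of a gene. RPKM is a share of the library and not an amount per cell. Changes are log2 fold changes, hypoxia minus normoxia in log2(RPKM + 1), a scale on which the changes of weakly expressed genes come out too small. Each is given with its standard error (SE) and an adjusted p from limma with Benjamini-Hochberg correction over 11884 genes. A gene is said to have risen or fallen when the adjusted p was under 0.05. Library depth, recovered from the smallest steps of the values, was 50.4 to 50.9 M reads in normoxia and 43.9 to 50.7 M in hypoxia. Markers of epithelial and basal breast cells were near 0: 4 epithelial genes reached 0.0785 RPKM and 3 basal keratin and TP63 genes 0.110 RPKM at most. These markers thus did not show an epithelial identity of this breast cancer line. Of the pair of mesenchymal markers, VIM stood at 4741 to 7439 RPKM and FN1 at 1.19 to 1.77 RPKM. PTPRC and PECAM1, of leukocytes and endothelium, stayed at or under 0.0954 RPKM, while the collagen gene COL1A1, listed as a fibroblast marker, stood at 240.5 to 406.2 RPKM. Of the receptors, ESR1 stayed at or under 0.209 RPKM and ERBB2 stood at 20.2 to 23.7 RPKM. VIM and COL1A1 were the 2 of 14 measured markers that rose, by log2 fold changes of 0.47 and 0.60; their part in the results below was not tested.

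In hypoxia the messenger RNA of most of the machinery was lower. Of the 29 genes, all of which passed the filter on low values, 16 fell, 1 rose and 12 did not pass the test. Among all tested genes 24.4% fell and 12.4% rose. The median log2 fold change of the 29 genes was -0.28, beside -0.08 for all tested genes, and 24 of the 29 estimates were negative. In 20 of the 29 genes every hypoxic library was below every normoxic one, a pattern shown by 35.6% of all tested genes, and in 1 gene, MAF1, every hypoxic library was above, as in 16.4% of all. The decreases were small: the largest was that of SSB, at -0.54, but that of SSB was -0.33 without hypoxia library 3. In bulk RNA, fewer cells with a transcript and less of it per cell cannot be told apart. The count of fallen genes was 9 without normoxia library 2, beside 13.6% of all tested genes, and 9 without normoxia library 3, beside 12.8%. Under upper-quartile scaling it was 9, beside 12.3%, and with no filter on low values 4, beside 5.18% of 26409 genes.

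**Figure D1:**
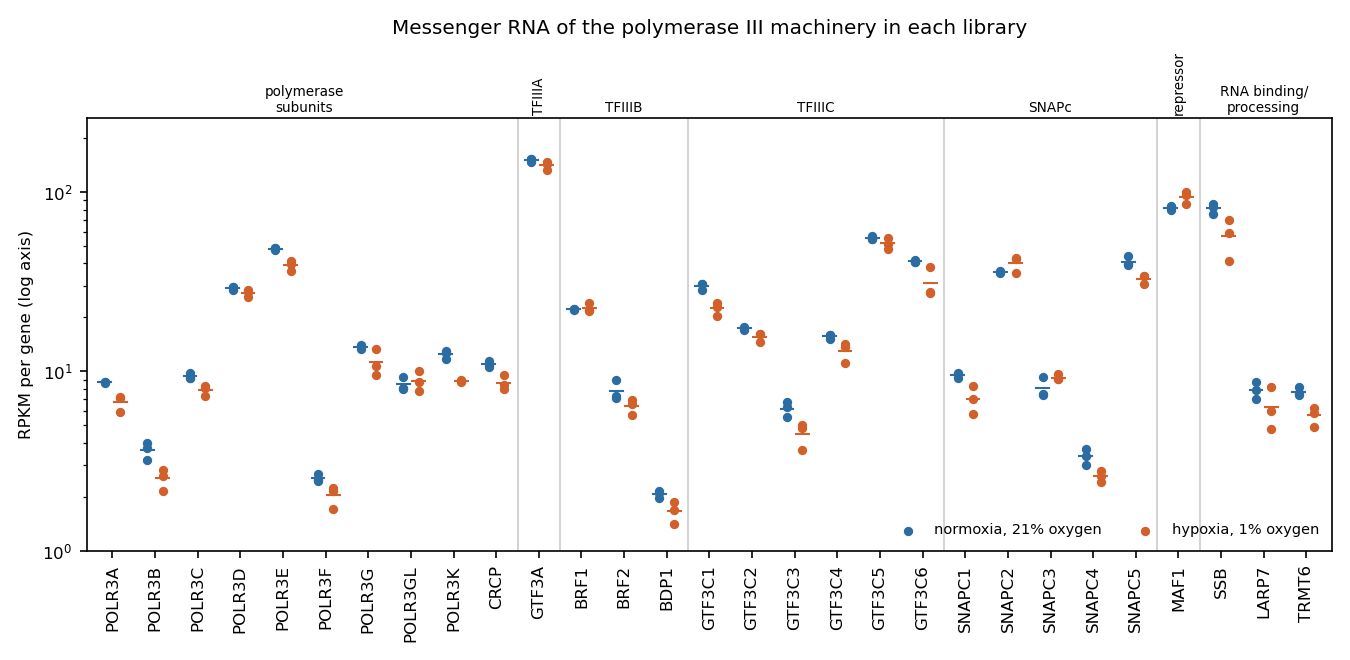
RPKM of each of the 29 genes (log axis) in 3 normoxic libraries (blue) and 3 hypoxic libraries (orange), grouped by role; short lines are group means. GTF3A, at a normoxic mean of 152 RPKM, was the most abundant and BDP1, at 2.07 RPKM, the least, and orange points lie below blue ones in most genes.

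Within each complex the genes differed widely in level. Among the enzyme's subunits POLR3E had 19.1 times the normoxic RPKM of POLR3F. Within TFIIIB the ratio of BRF1 to BDP1 was 10.7, within TFIIIC that of GTF3C5 to GTF3C3 was 8.96, and within SNAPc that of SNAPC5 to SNAPC4 was 12.2. The mean log2(RPKM + 1) of the 29 genes was 4.05, 4.07 and 4.07 in the normoxic libraries and 3.86, 3.87 and 3.78 in the hypoxic ones. Hypoxia library 3, also the shallowest, was the lowest of its group in 13 genes. The 29 genes varied more between hypoxic than between normoxic libraries, with median SDs of 0.12 and 0.05 log2 units; over all tested genes these were 0.11 and 0.06.

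The enzyme itself accounted for 7 of the decreases. Of its 10 listed subunits 7 fell, beside 24.4% of all tested genes. By limma 0 rose at an adjusted or an unadjusted p under 0.05. The median log2 fold change was -0.29, beside -0.08 for all tested genes. POLR3A and POLR3B are the large subunits that form the catalytic centre. POLR3A (chromosome 10, 77969251 to 78029545, GRCh38) measured 8.67, 8.78 and 8.60 RPKM in normoxia and 7.22, 5.93 and 7.14 RPKM in hypoxia. The hypoxic values were all lower and more scattered than the nearly equal normoxic ones, and the log2 fold change was -0.32 (SE 0.08 and adjusted p = 0.0135). POLR3B (chromosome 12, 106357658 to 106510198) was the weaker of the pair, at 3.97, 3.18 and 3.73 RPKM in normoxia and 2.81, 2.62 and 2.16 RPKM in hypoxia. Its groups did not overlap either, although normoxia library 2 lay close to hypoxia library 1, and the log2 fold change was -0.39 (SE 0.10 and adjusted p = 0.0136).

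POLR3K, the small subunit with which the enzyme cleaves RNA and ends transcription, had the lowest log2 fold change of the 10 subunits, although with a pseudocount of 0.1 POLR3B was lower, at -0.51 beside -0.49. POLR3K (chromosome 16, 46407 to 53628) measured 13.0, 11.8 and 12.6 RPKM in normoxia and 8.91, 8.86 and 8.70 RPKM in hypoxia. The 3 hypoxic libraries were almost equal and all far under the normoxic range, and the log2 fold change was -0.45 (SE 0.07 and adjusted p = 0.00095). Of its annotated exonic bases, 8.10% overlap SNRNP25 on the other strand, a gene of the minor spliceosome. SNRNP25 went from 18.9 ± 0.964 RPKM (SD, n = 3) to 13.5 ± 1.11 RPKM (SD, n = 3), a log2 fold change of -0.45. The library kit does not mark strand, so reads from the shared bases cannot be assigned to one gene, and their part in the result was not tested.

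POLR3E and POLR3D form a dimer on the enzyme's lobe that takes part in initiation and termination, and only one of the pair passed the test. POLR3E (chromosome 16, 22297375 to 22335103), the most abundant listed subunit, measured 48.8, 47.5 and 48.8 RPKM in normoxia and 39.8, 36.4 and 41.5 RPKM in hypoxia. Each hypoxic library was below each normoxic one, with a log2 fold change of -0.30 (SE 0.06 and adjusted p = 0.00503). POLR3D measured 29.4, 28.4 and 29.7 RPKM in normoxia and 26.0, 27.6 and 28.5 RPKM in hypoxia. Hypoxia library 3 reached the normoxic range, and the log2 fold change of -0.09 had a 95% interval of -0.22 to 0.05 (adjusted p = 0.275). The difference between the changes of POLR3E and POLR3D was not tested.

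POLR3C, POLR3F and POLR3G form a trimer that contacts TFIIIB and helps open the promoter. POLR3C measured 9.19, 9.19 and 9.76 RPKM in normoxia and 8.04, 7.30 and 8.28 RPKM in hypoxia, without overlap, and fell by 0.23 on the log2 scale (SE 0.08 and adjusted p = 0.0368). POLR3F, the weakest subunit, measured 2.45, 2.67 and 2.48 RPKM in normoxia and 2.24, 2.16 and 1.70 RPKM in hypoxia. Its groups did not overlap, but the log2 fold change of -0.22 did not pass the test (adjusted p = 0.0896). CRCP, a subunit of the enzyme's stalk, measured 10.9, 11.4 and 10.6 RPKM in normoxia and 9.56, 8.44 and 7.97 RPKM in hypoxia. All hypoxic values of CRCP lay below the normoxic ones, with a log2 fold change of -0.31 (SE 0.08 and adjusted p = 0.0125).

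POLR3G and POLR3GL are paralogs that fill the same place in the enzyme, POLR3G being the form known from stem and tumour cells and POLR3GL the form of most differentiated tissues. POLR3G measured 14.01, 13.94 and 13.31 RPKM in normoxia and 13.36, 9.52 and 10.7 RPKM in hypoxia. It was the only one of the 16 fallen genes whose groups overlapped, since hypoxia library 1 lay within the normoxic range, and its log2 fold change of -0.29 (SE 0.10) was close to the threshold (adjusted p = 0.0481). It was -0.18 without hypoxia library 2 (adjusted p = 0.137) and -0.11 with the GC trend removed (adjusted p = 0.45). POLR3GL measured 7.95, 8.11 and 9.32 RPKM in normoxia and 8.68, 10.1 and 7.77 RPKM in hypoxia. The highest and the lowest POLR3GL value were both hypoxic, and its log2 fold change of 0.05 had a 95% interval of -0.16 to 0.27. The RPKM ratio of POLR3G to POLR3GL was 1.76, 1.72 and 1.43 in normoxia and 1.54, 0.947 and 1.38 in hypoxia. POLR3G was thus the more abundant paralog in 5 of 6 libraries, hypoxia library 2 being the exception. On the log2(RPKM + 1) scale the ratio was 0.64 ± 0.15 (SD, n = 3) in normoxia and 0.31 ± 0.34 (SD, n = 3) in hypoxia. The difference of -0.34 gave p = 0.2 in a two-sided exact permutation test, where 3 against 3 libraries cannot go below 0.1.

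The enzyme also holds subunits shared with polymerase I or II, which lie outside the list of 29. Of the 8 genes followed here (POLR1C, POLR1D, POLR2E, POLR2F, POLR2H, POLR2K, POLR2L and the TATA-binding protein TBP), 3 fell, 1 rose and 4 did not pass the test. POLR2H, shared by all 3 polymerases, was the gene that rose. It measured 46.2, 42.2 and 48.1 RPKM in normoxia and 64.2, 64.5 and 59.6 RPKM in hypoxia, a log2 fold change of 0.46 (SE 0.07 and adjusted p = 0.000594). The decreases were those of POLR2K (-0.47), POLR1C (-0.31) and TBP (-0.22). POLR1C kept its call in all 16 alternatives, while TBP lost it in 8, among them leaving out normoxia library 2 or 3 or hypoxia library 2 (adjusted p of 0.0622 to 0.151). POLR2K lost it without normoxia library 3 (adjusted p = 0.0624) and was at -0.31 without hypoxia library 3. The parts specific to the other polymerases give the setting for these values. Of 6 polymerase I genes 5 fell, with a median of -0.45, and of 7 polymerase II genes 4 fell, with a median of -0.22. Among all tested genes 24.4% fell and 12.4% rose, with a median of -0.08. No difference between the 3 polymerases was tested.

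**Figure D2:**
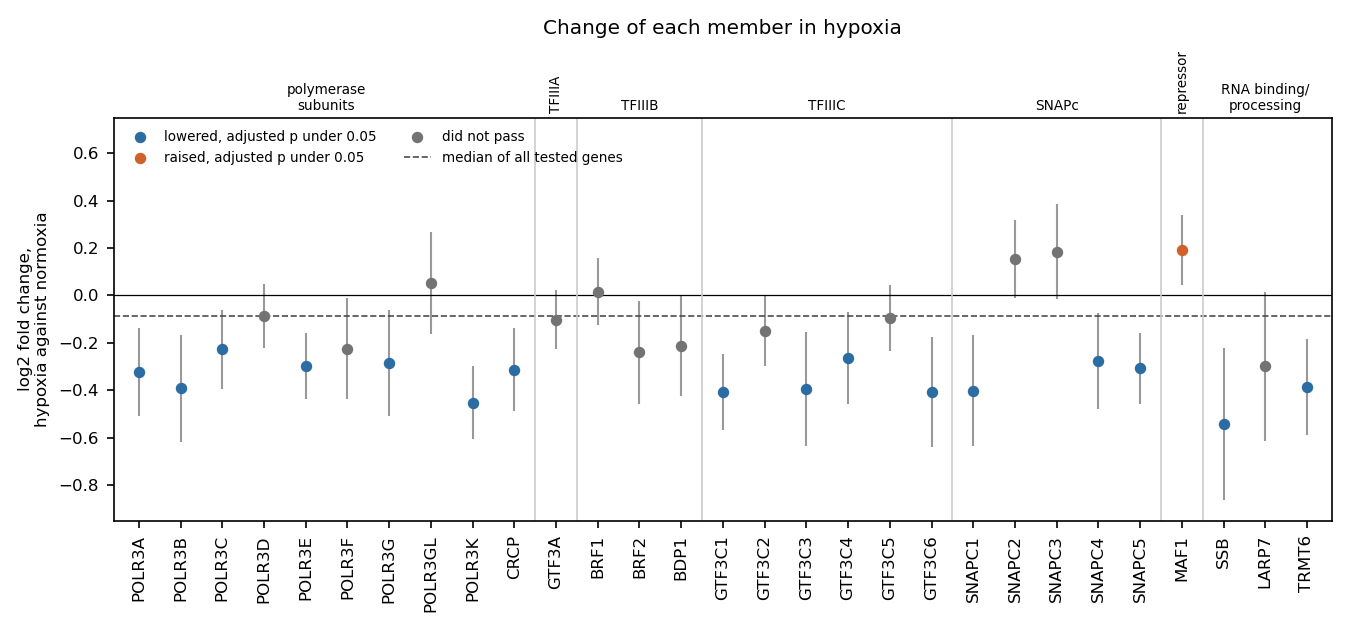
Log2 fold change of each of the 29 genes in hypoxia against normoxia (points) with 95% intervals (lines), by role; blue points fell, the orange point rose and grey points did not pass the test. The dashed line is the median of all tested genes, -0.08, and MAF1 is the sole orange point.

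TFIIIA, encoded by GTF3A, is the zinc-finger protein that starts factor assembly on 5S ribosomal RNA genes, and its messenger RNA was the most abundant of the 29. GTF3A measured 148, 153 and 154 RPKM in normoxia and 134, 147 and 143 RPKM in hypoxia. The hypoxic values were all lower, yet hypoxia library 2 nearly touched normoxia library 1, and the log2 fold change of -0.10 (95% interval -0.23 to 0.02) did not pass the test (adjusted p = 0.17).

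TFIIIB, the factor that holds the enzyme at the start site, consists of TBP, BDP1 and either BRF1 or BRF2. Of its 3 listed genes 0 passed limma's test after adjustment, while 2 had an unadjusted p under 0.05; the median log2 fold change was -0.21. BRF1, used at transfer RNA and 5S genes, measured 22.42, 22.41 and 21.99 RPKM in normoxia and 21.7, 21.9 and 24.1 RPKM in hypoxia. The groups overlapped, and the log2 fold change of 0.02 had a 95% interval of -0.12 to 0.16. BRF2, used at U6-type genes, measured 8.90, 7.26 and 7.07 RPKM in normoxia and 6.91, 5.71 and 6.54 RPKM in hypoxia. All hypoxic values lay lower, by a narrow gap, with a log2 fold change of -0.24 and an adjusted p of 0.0778. On the other strand ADGRA2, at a mean of 1.16 RPKM, covers 59.0% of the annotated exonic bases of BRF2. BDP1, the scaffold common to both forms of TFIIIB, measured 1.97, 2.10 and 2.14 RPKM in normoxia and 1.87, 1.69 and 1.41 RPKM in hypoxia. Its groups did not overlap, and the log2 fold change of -0.21 did not pass the test (adjusted p = 0.0986). When transcripts were weighted by length, as a count of reads would weight them, BDP1 fell by 0.43 on the log2 scale (adjusted p = 0.0145).

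TFIIIC recognises the internal promoter of transfer RNA genes, and 4 of its 6 genes fell, beside 24.4% of all tested genes. None (0) rose by limma at an adjusted or an unadjusted p under 0.05. The median was -0.33, beside -0.08 for all tested genes. GTF3C1 (chromosome 16, 27459555 to 27549913) encodes the largest TFIIIC subunit, which takes part in binding the B box. It measured 30.7, 30.9 and 28.6 RPKM in normoxia and 24.1, 20.4 and 22.8 RPKM in hypoxia. The groups were well apart, with means of 30.1 ± 1.27 and 22.5 ± 1.86 RPKM (SD, n = 3 each) and a log2 fold change of -0.41 (SE 0.07 and adjusted p = 0.00205).

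GTF3C3, the TFIIIC subunit that contacts TFIIIB, measured 5.56, 6.71 and 6.30 RPKM in normoxia and 4.84, 4.99 and 3.64 RPKM in hypoxia, and fell by 0.39 on the log2 scale (SE 0.11 and adjusted p = 0.0177). GTF3C6 measured 40.5, 42.0 and 41.0 RPKM in normoxia and 27.8, 38.1 and 27.6 RPKM in hypoxia. Hypoxia library 2 stayed near the normoxic range while the other hypoxic libraries were much lower, and the log2 fold change was -0.41 (SE 0.10 and adjusted p = 0.0124). GTF3C4 measured 16.0, 16.0 and 15.2 RPKM in normoxia and 14.2, 11.1 and 13.6 RPKM in hypoxia, a log2 fold change of -0.26 (SE 0.09 and adjusted p = 0.038). None of these 3 genes had overlapping groups. The remaining TFIIIC genes did not pass: GTF3C2 had a log2 fold change of -0.15 (adjusted p = 0.101) without overlap between groups. GTF3C5, the most abundant TFIIIC gene and the subunit at the A box, had one of -0.10 (95% interval -0.23 to 0.04), and its highest hypoxic value of 55.7 RPKM lay inside the normoxic range.

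SNAPc binds the upstream element of U6 and other small nuclear RNA genes and serves polymerases II and III alike. Of its 5 genes 3 fell, beside 24.4% of all tested genes. Again 0 rose by limma at an adjusted or an unadjusted p under 0.05. The median was -0.28, beside -0.08 for all tested genes. SNAPC1 measured 9.13, 9.61 and 9.80 RPKM in normoxia and 7.03, 8.29 and 5.75 RPKM in hypoxia. Hypoxia library 3 was the lowest, no hypoxic value reached the normoxic ones, and the log2 fold change was -0.40 (SE 0.11 and adjusted p = 0.0142). SNAPC4, the largest subunit, which contacts DNA, measured 3.67, 3.38 and 3.02 RPKM in normoxia and 2.77, 2.40 and 2.62 RPKM in hypoxia, and fell by 0.28 on the log2 scale (SE 0.09 and adjusted p = 0.0367). SNAPC5, the smallest subunit (chromosome 15, 66490135 to 66497813), measured 39.7, 39.2 and 43.9 RPKM in normoxia and 33.9, 33.9 and 30.7 RPKM in hypoxia. Its groups were apart, with a log2 fold change of -0.31 (SE 0.07 and adjusted p = 0.00604). SNAPC5 shares 8.61% of its exonic bases with the oppositely oriented MAP2K1, which rose from 25.5 ± 0.923 to 49.4 ± 3.07 RPKM (SD, n = 3 each). Another annotated gene on the same strand, at a mean of 0.543 RPKM, shares 23.2% of the exonic bases of SNAPC5. The part of the shared bases in the SNAPC5 value was not tested.

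The other two SNAPc genes had positive estimates that did not pass the test. SNAPC2 measured 35.4, 36.4 and 35.9 RPKM in normoxia and 35.5, 42.1 and 42.8 RPKM in hypoxia. Hypoxia library 1 was level with normoxia and the others lay above it, with a log2 fold change of 0.15 and an adjusted p of 0.126. Without hypoxia library 1 SNAPC2 rose by 0.24 (adjusted p = 0.0102), and under median-of-ratios scaling it also passed, at 0.24 (adjusted p = 0.0354). Without hypoxia library 3 the SNAPC2 estimate was 0.10 (adjusted p = 0.29) and with the GC trend removed 0.07 (adjusted p = 0.369). SNAPC3, a subunit that contacts DNA with SNAPC4, measured 7.35, 9.31 and 7.48 RPKM in normoxia and 9.02, 9.67 and 9.03 RPKM in hypoxia. Normoxia library 2 lay among the hypoxic values, the log2 fold change was 0.19 (adjusted p = 0.131), and without that library it was 0.28 (adjusted p = 0.0486). With reads estimated per gene the SNAPC3 value was 0.10 (adjusted p = 0.356).

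MAF1, the repressor of the enzyme, was the 1 gene of the 29 that rose. MAF1 measured 79.3, 83.5 and 83.1 RPKM in normoxia and 85.4, 100.2 and 96.2 RPKM in hypoxia. Every hypoxic library was higher, hypoxia library 1 only slightly, and the log2 fold change was 0.19 (SE 0.07 and adjusted p = 0.0441). The call was not stable: leaving out any one library except hypoxia library 1 raised the adjusted p to between 0.0868 and 0.152, with log2 fold changes of 0.14 to 0.20. MAF1 protein is controlled mainly by phosphorylation, which was not measured. In the list of 13 regulators of the enzyme followed beside it, 3 genes fell and 1 rose, beside 24.4% and 12.4% of all tested genes. The median of the 13 was -0.04, beside -0.08 for all tested genes. MTOR, the kinase that phosphorylates MAF1, fell by 0.50 on the log2 scale (SE 0.08 and adjusted p = 0.0012). RPTOR, which presents substrates to that kinase, rose by 0.28 (SE 0.07 and adjusted p = 0.0093), but the call was lost without normoxia library 3 (adjusted p = 0.054) and its estimate was -0.17 when only protein-coding transcripts were summed. MYC, an activator of polymerase III genes, measured 94.0, 94.96 and 94.7 RPKM in normoxia and 88.2, 90.3 and 100.4 RPKM in hypoxia, with overlap and a log2 fold change of -0.03 (95% interval -0.16 to 0.11).

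Of the 3 proteins that act on the finished RNA, SSB and TRMT6 fell and LARP7 did not pass the test. SSB, the La protein, binds the run of uridines at the end of new polymerase III transcripts and protects them. SSB (chromosome 2, 169791933 to 169812064) measured 75.5, 82.5 and 86.1 RPKM in normoxia and 59.4, 69.8 and 41.1 RPKM in hypoxia. The hypoxic libraries were all lower but far apart, hypoxia library 3 being the lowest, and the log2 fold change of -0.54 had the largest SE of the 29 genes, 0.15 (adjusted p = 0.0151). On the other strand METTL5, at a mean of 56.7 RPKM, overlaps 11.2% of the annotated exonic bases of SSB. METTL5 had a log2 fold change of -0.28 (adjusted p = 0.0311), and the part of the shared bases in the SSB value was not tested. LARP7, the La-related protein of the 7SK particle, measured 6.97, 7.91 and 8.75 RPKM in normoxia and 6.05, 8.13 and 4.78 RPKM in hypoxia. LARP7 had the same order of hypoxic libraries as SSB, but hypoxia library 2 lay within the normoxic range; the log2 fold change of -0.30 did not pass (adjusted p = 0.12), without hypoxia library 2 it was -0.47 (adjusted p = 0.0102), and without hypoxia library 3 it was -0.14 (adjusted p = 0.389). TRMT6, with its partner TRMT61A, methylates an adenosine in transfer RNA. TRMT6 measured 7.57, 7.38 and 8.17 RPKM in normoxia and 5.89, 6.25 and 4.91 RPKM in hypoxia, apart in all libraries, with a log2 fold change of -0.39 (SE 0.09 and adjusted p = 0.00878).

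The wider path from a new transfer RNA to its use was followed with 27 genes for cleavage, splicing, modification and export, of which 26 were tested. Of these 16 fell and 0 rose by limma after adjustment, beside 24.4% and 12.4% of all tested genes. The median was -0.25, beside -0.08 for all tested genes. The lowest 2 estimates were those of POP1 (-0.65, adjusted p = 0.00112) and RPP40 (-0.53, adjusted p = 0.000572, but -0.28 with protein-coding transcripts only), protein parts of RNase P, which trims the leading end of transfer RNA, and of RNase MRP. ELAC2, which trims the trailing end, had a log2 fold change of -0.50 (adjusted p = 0.000168), and TRMT61A, the partner of TRMT6, had one of -0.27 (adjusted p = 0.0151).

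How far each call depended on single libraries and on processing varied between genes. Of the 17 called genes 5 (POLR3E, POLR3K, GTF3C1, SNAPC5 and TRMT6) kept an adjusted p under 0.05 whichever library was left out. POLR3E, POLR3K and GTF3C1 kept it in all 16 alternatives. The matching shares of all called genes are not given. With a normoxic library left out, 12.8% to 14.7% of all tested genes fell, in place of 24.4%. Estimates moved by over 1.5 times for GTF3C3 (-0.25), SNAPC1 (-0.24) and MAF1 (0.12) with the GC trend removed and for POLR3A (-0.20) and GTF3C4 (-0.14) with the length trend removed. They did so too for GTF3C4 without hypoxia library 2 (-0.16), for POLR3C under median-of-ratios scaling (-0.15) and, upward in size, for SNAPC4 (-0.42) and POLR3G (-0.44) with estimated reads. POLR3G lost the call in 10 of the 16, POLR3C and GTF3C4 in 9 each, and SNAPC4 in 7 of 15 in which it was tested. SSB lost it without normoxia library 3 (adjusted p = 0.0562) and GTF3C6 without hypoxia library 1 (adjusted p = 0.0529). Scaling mattered for the counts over all genes: of the genes called, 66.2% fell as deposited but 41.3% after median-of-ratios scaling, where 12 of the 29 genes fell, beside 12% of all tested genes, and 2 rose, beside 17%. The 29 genes' median was then -0.21 and that of all genes -0.01. One factor per library shifts both medians nearly alike, so this scaling says little about the gap between them. With the GC trend removed, an alternative that can move the gap, the medians were -0.18 and -0.05, a gap of -0.14 in place of -0.19, and 15 of the 29 genes fell, beside 21.4% of all.

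**Figure D3:**
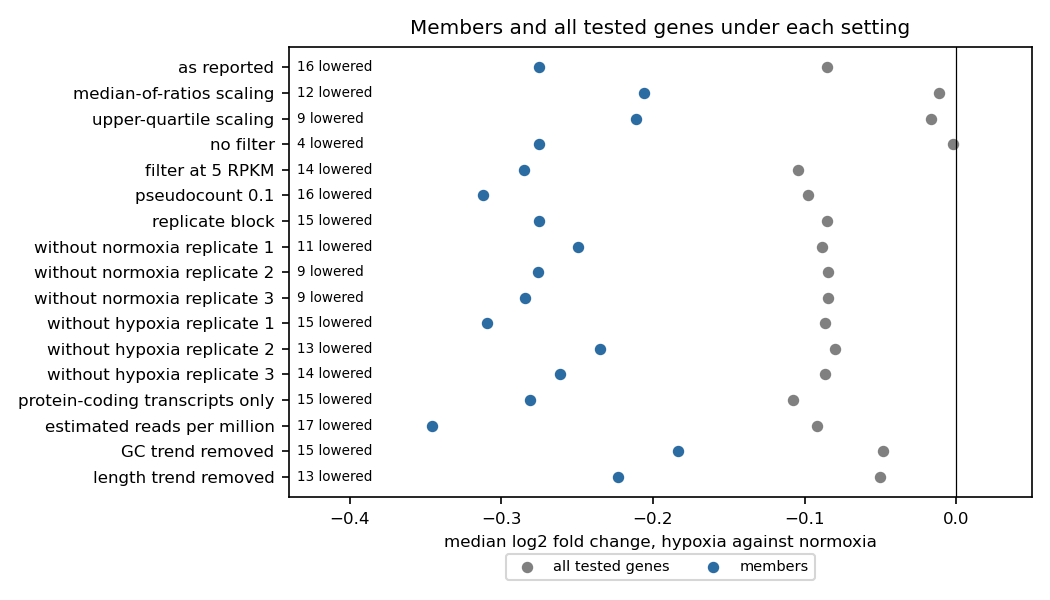
Median log2 fold change of the 29 genes (blue) and of all tested genes (grey) for the values as reported and 16 alternatives, with the number of the 29 that fell written at the left. The blue points lie between -0.35 and -0.18 and to the left of the grey point in each row, while the number that fell varies from 4 to 17.

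The 3 genes with the most stable calls are shown with their promoters, 250 bases before to 50 bases after the start, from RefSeq on GRCh38.p14. Capitals mark matches on either strand to any of 7 motifs: ACGTG, the core of the hypoxia response element; CACGTG, an E-box that contains it; CCGGAAG, bound by ETS factors; the palindrome bound by NRF1; TATAAA, the box bound by TBP; CCAAT, bound by NF-Y; and the B box that TFIIIC binds in transfer RNA genes. The POLR3E promoter is chr16:22297159-22297458 on the plus strand, that of POLR3K chr16:53559-53858 on the minus strand and that of GTF3C1 chr16:27549864-27550163 on the minus strand.
POLR3E: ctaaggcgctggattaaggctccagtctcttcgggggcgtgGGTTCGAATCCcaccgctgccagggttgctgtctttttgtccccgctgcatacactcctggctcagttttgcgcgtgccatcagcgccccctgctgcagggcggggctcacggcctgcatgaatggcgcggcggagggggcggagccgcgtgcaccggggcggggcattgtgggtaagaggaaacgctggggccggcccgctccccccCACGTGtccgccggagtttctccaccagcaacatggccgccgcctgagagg
POLR3K: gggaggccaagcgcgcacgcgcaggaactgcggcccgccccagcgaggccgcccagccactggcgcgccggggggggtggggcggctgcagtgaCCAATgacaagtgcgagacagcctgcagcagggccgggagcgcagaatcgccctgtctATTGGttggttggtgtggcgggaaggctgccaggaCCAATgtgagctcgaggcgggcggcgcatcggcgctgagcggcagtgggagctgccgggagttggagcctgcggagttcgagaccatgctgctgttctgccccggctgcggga
GTF3C1: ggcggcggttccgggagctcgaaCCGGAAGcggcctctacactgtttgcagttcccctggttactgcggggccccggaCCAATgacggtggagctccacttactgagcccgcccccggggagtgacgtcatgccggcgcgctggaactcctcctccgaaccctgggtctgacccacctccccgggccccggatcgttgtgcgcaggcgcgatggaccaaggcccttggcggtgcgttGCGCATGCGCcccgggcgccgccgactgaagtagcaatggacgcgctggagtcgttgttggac
The POLR3E promoter holds a CACGTG and, farther upstream, a match to the B box. The POLR3K promoter holds 3 CCAAT matches, and that of GTF3C1 one match each to CCGGAAG, the NRF1 palindrome and CCAAT. Promoters of 23 of the 29 genes were matched, 33 in all, because some genes have several. The letters ACGTG were in 15 of these 33 (45.5%), beside 26.0% of the 13612 promoters of tested genes and 21.4% of all 35116 promoters. CACGTG was in 24.2%, beside 9.46% of promoters of tested genes, CCGGAAG in 30.3%, beside 18.02%, and the NRF1 palindrome in 9.09%, beside 2.06%. CCAAT was in 33.3%, beside 34.9%, TATAAA in 6.06%, beside 5.61%, and the B box in 1 promoter (3.03%), beside 0.228%. Promoters of one gene overlap and are not independent, and these shares describe letters, not binding.

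Transcript values show what lay behind the gene values. The 29 genes have 203 deposited transcripts, of which 68 were expressed enough to be tested; 4 fell and 0 rose by limma after adjustment, beside 3.22% and 3.5% of all 26784 tested transcripts. At an unadjusted p under 0.05 by limma, 22 of the 68 were lower. The share of all tested transcripts at that threshold is not given, so this count says nothing particular to the 29 genes. The transcripts that fell were the POLR3K transcript of 1392 bases (log2 fold change -0.45), a GTF3C1 transcript of 7015 bases (-0.45), a POLR3E transcript of 2469 bases (-0.52) and an SSB transcript of 1782 bases (-0.51). The POLR3K and GTF3C1 transcripts carried 100% and 62.8% of their gene's normoxic RPKM, while the POLR3E and SSB transcripts carried 17.8% and 2.22%. Without any one normoxic library, 0 of the 68 passed limma's test. In these fits 18 or 19 were lower at an unadjusted p under 0.05, again with no share of all transcripts given. One transcript held over 50% of the RPKM in 26 of the 29 genes, and the same transcript led in both groups in 28; LARP7 was the exception. Its transcript of 2286 bases held 40.5% ± 5.00 (SD, n = 3) in normoxia and 26.8% ± 12.3 in hypoxia, and that of 2164 bases held 27.2% ± 4.92 and 36.9% ± 4.62.

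**Figure D4:**
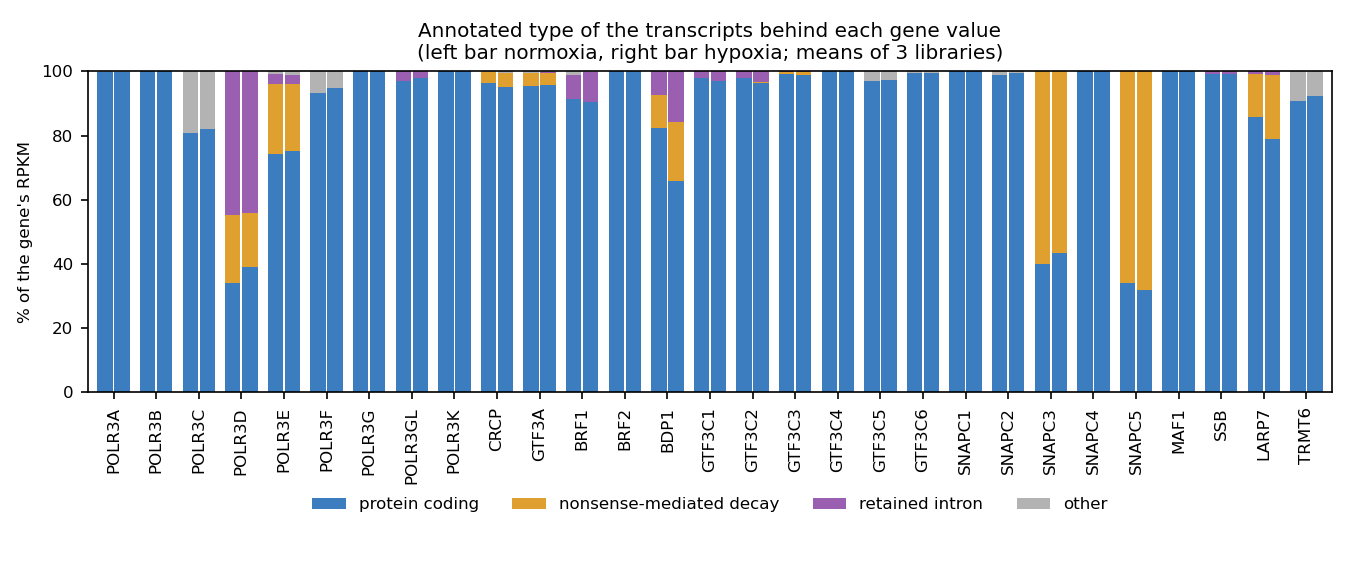
Share of each gene's RPKM (percent) in transcripts annotated as protein coding, as targets of nonsense-mediated decay, with a retained intron, or other; left bar normoxia, right bar hypoxia, means of 3 libraries. In 22 of the 29 genes over 90% was protein coding, and POLR3D, SNAPC3 and SNAPC5 stand out with under 50%.

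In POLR3D 44.7% of the normoxic RPKM was assigned to a transcript of 841 bases with a retained intron, and in SNAPC5 66.1% went to transcripts annotated as targets of nonsense-mediated decay. SNAPC3 had 60.1% in such transcripts. These shares of POLR3D, SNAPC3 and SNAPC5 were similar in hypoxia, at 44.2%, 56.5% and 68.0%. Summing only protein-coding transcripts turned the POLR3D estimate to 0.09 (adjusted p = 0.477), and the SNAPC5 estimate of -0.40 no longer passed (adjusted p = 0.0832). BDP1 was the gene whose coding share moved most, from 82.3% to 66.0%, and its coding transcripts alone fell by 0.37 (adjusted p = 0.022). Its main transcript, of 11073 bases, held 82.3% ± 3.79 (SD, n = 3) in normoxia and 66.0% ± 8.93 in hypoxia. POLR3G was split between a transcript of 682 bases, with 54.4% of the normoxic RPKM and a log2 fold change of -0.16, and one of 3251 bases, with 37.1% and a log2 fold change of -0.58 (adjusted p = 0.0941). Because RPKM divides by length, short transcripts weigh more in these sums than their reads do.

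Of the RNAs that the enzyme makes 20 genes were looked up. Values were found for 7 entries, a pair of them for RMRP, and 6 entries were tested. Of the 6 entries 5 rose and 1 fell, beside 12.4% and 24.4% of all tested genes. The 5 that rose went opposite to most of the machinery but are not 5 separate RNAs. RN7SL1 and RN7SL2 are nearly identical, and the pair of RMRP entries overlap and share reads. Whether the values of these RNAs follow the output of the enzyme was not tested. RN7SK, the RNA that holds the elongation kinase in check, measured 1.86, 2.08 and 2.10 RPKM in normoxia and 12.6, 7.64 and 8.66 RPKM in hypoxia. All hypoxic libraries were far above the normoxic ones, by 4.78-fold in the means and by a log2 fold change of 1.79 (SE 0.14 and adjusted p = 7.61e-06). The RN7SK values rest on an estimated 31.1 to 209.8 reads per library. A second entry, 7SK, covers all 328 bases of RN7SK on the same strand and holds a further 19.9 to 134.3 estimated reads, so the level and reads of RN7SK are partial. The 7SK entry had a log2 fold change of 1.62 (adjusted p = 1.5e-05).

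**Figure D5:**
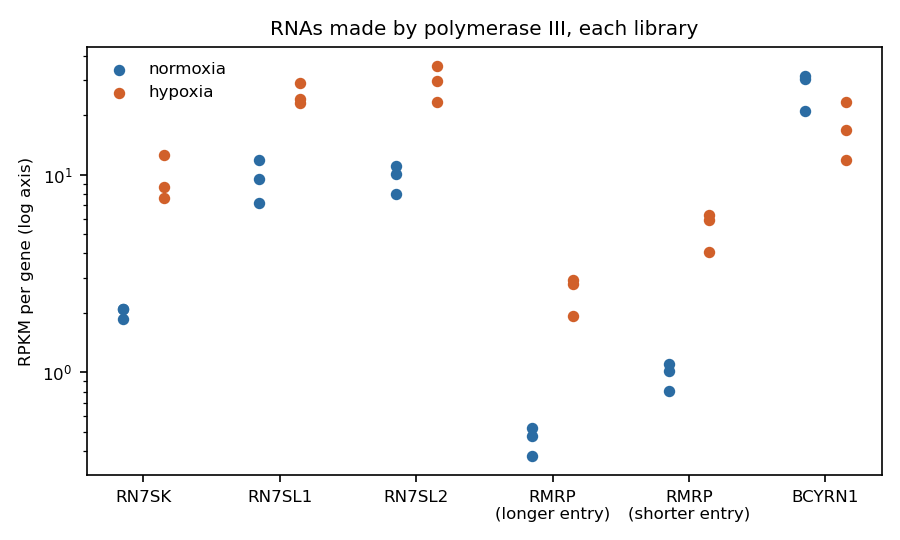
RPKM (log axis) of 6 gene entries for RNAs made by polymerase III in 3 normoxic (blue) and 3 hypoxic (orange) libraries. The groups are apart with hypoxia higher in RN7SK, RN7SL1, RN7SL2 and both entries of RMRP, and overlap with hypoxia lower in the mean in BCYRN1.

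RN7SL1 and RN7SL2 encode the RNA of the signal recognition particle, which guides secreted proteins to the membrane. RN7SL1 measured 7.21, 9.57 and 11.9 RPKM in normoxia and 23.2, 24.1 and 29.1 RPKM in hypoxia, a log2 fold change of 1.34 (SE 0.14 and adjusted p = 7.09e-05). RN7SL2 measured 7.96, 10.1 and 11.1 RPKM in normoxia and 29.7, 23.3 and 35.3 RPKM in hypoxia, a log2 fold change of 1.498 (SE 0.14 and adjusted p = 2.91e-05). Both were about as high as each other and apart between groups; their sequences are 98.3% identical over 300 aligned positions, so their reads cannot be split with certainty and the pair counts as 1 observation. RMRP, the RNA of RNase MRP, has a pair of overlapping entries, and the shorter, of 264 bases, measured 0.805, 1.11 and 1.02 RPKM in normoxia and 6.22, 5.91 and 4.08 RPKM in hypoxia. Its log2 fold change was 1.68 (SE 0.13 and adjusted p = 6.85e-06), on only 10.8 to 83.2 estimated reads, and the longer entry shared its reads. BCYRN1, an RNA related to Alu repeats, measured 31.7, 21.1 and 30.5 RPKM in normoxia and 16.8, 23.4 and 11.8 RPKM in hypoxia. Its groups overlapped, and the log2 fold change of -0.68 (SE 0.20 and adjusted p = 0.0236) lost the call in 6 of 15 alternatives, and without hypoxia library 3 it was -0.44 (adjusted p = 0.076). RN7SK, RN7SL1, RN7SL2 and both RMRP entries kept theirs in all 13 to 15 alternatives in which they were tested.

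The last 30 bases of the annotated RN7SK and BCYRN1 transcripts are shown because SSB and LARP7 bind closing runs of uridine, with the closing run of T (U in the RNA) in capitals.
RN7SK: gaggcgctgcatgtggcagtctgcctttcT
BCYRN1: ccctcaaagcaacaaccccccccccccTTT
The closing run is 1 base in RN7SK and 3 bases in BCYRN1, so the RN7SK entry as annotated does not show the run that these proteins bind. These RNAs lack a poly(A) tail when mature, and how RNA was selected for the libraries is not given in the sources used here. Mitochondrial ribosomal RNAs and histone genes, some of whose RNAs lack a long tail, were therefore looked at after these values were seen. MT-RNR1, a mitochondrial ribosomal RNA, rose by 0.75 (adjusted p = 0.00139) and MT-RNR2 by 0.40 (adjusted p = 0.0329). The MT-RNR2 call was lost without normoxia library 2 or 3 (adjusted p = 0.0951 and 0.125) and without hypoxia library 1, where it was 0.26 (adjusted p = 0.12). Of 57 histone genes listed, 25 passed the filter on low values. Of these 25, 6 rose and 2 fell, with a median of 0.10, beside 12.4% and 24.4% of all tested genes. The largest estimates were those of HIST2H2AA4 (0.71) and HIST2H2AA3 (0.49), and whether this pair shares reads was not tested. Some histone values rest on longer transcripts, with lengths weighted by level of 2475 bases for H3C6 and 2250 bases for H2AC11. Which histone transcripts lack a tail here was not tested. The part of RNA selection in the RN7SK, RN7SL and RMRP values was not tested.

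LARP7 and RN7SK belong to the particle that holds back the kinase CDK9, and 7 of its genes were followed. RN7SK and HEXIM2 (0.42, adjusted p = 0.00562) rose and CCNT1, a cyclin of CDK9, fell (-0.38, adjusted p = 0.0436, with overlapping groups). Among all tested genes 12.4% rose and 24.4% fell. The CCNT1 call was lost in 9 of 16 alternatives, among them leaving out normoxia library 1 or 2 or hypoxia library 2 or 3, with adjusted p of 0.086 to 0.142. MEPCE, which caps 7SK RNA, HEXIM1, CDK9 and CCNT2 did not pass the test, with log2 fold changes of -0.12, -0.15, -0.04 and -0.25.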

How the data were processed

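Per the labels' protocols, each library was prepared without strand information from 500 ng of total RNA. The tools, per the submitters' processing notes, were HISAT2, Partek, SAMtools and Trimmomatic, with builds GRCh38 and hg38; their versions, the annotation release and the selection of RNA are each not given in the sources used here. Values for 165956 Ensembl transcripts were deposited as 1 table in RPKM; the unit is not written in it and was inferred from the values, of which 81.1% to 82.9% of the low ones per library lay within 0.1 of whole multiples of 1 read. One read in 2 kb is worth 0.00982 to 0.0114 RPKM, and depth covers counting error only.

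GENCODE 29 held 140004 of the transcript identifiers (84.4%); the rest, 3.44% to 3.68% of the RPKM, was left out. RPKM was summed per gene, and genes above 1 RPKM in 3 or more libraries were fitted with limma 3.58.1 (R 4.3.3) (mean-variance trend, log2(RPKM + 1), group as the only term, two-sided), adjusted by Benjamini-Hochberg at a threshold of 0.05. Tables and figures were made with Python 3.11.15, pandas 2.3.3 and numpy 2.4.6. The 29 genes, the other lists and the tests were chosen with earlier results of these data known. All 29 genes are named whatever their values, and genes of the other lists are named where the text turns on them. No pair of replicates agreed within counting noise (mean chi-square per gene 6.69 or more). The fit was also run on simulated data with 11884 genes, of which 50 were changed at each size, with the same spread in both groups. It recovered 74% of genes lowered by log2 0.5 and 98% of those lowered by log2 1, and 2.86% of the simulated calls were false. In the real data many more genes were called and the hypoxic spread was larger, so these rates need not hold for the calls above. A gene that did not pass is not shown to be unchanged. Alternatives were 2 other scalings, 2 other filters, a pseudocount of 0.1, a replicate block, leaving out each library, protein-coding transcripts only, estimated reads, and, chosen after seeing the data, removal of trends on GC content or length. One gene of the other lists and the ends of some RNAs are not reported here.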

Additional observations from a re-analysis of the deposited data

How the results depend on the processing

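The number of genes changed, 4379 as reported, was 2436 with no filter and 2550 to 4476 with one library left out. Of the 29 genes 16 fell as reported (24.4% of all tested genes), 9 under upper-quartile scaling (12.3%), 4 with no filter (5.18%) and 9 to 15 with one library left out (12.8% to 24.1%); 1 rose as reported, 2 under median-of-ratios and under upper-quartile scaling, 0 with no filter and 0 to 2 with one library left out (limma; where the count was 0, at most 1 had an unadjusted p under 0.05). Transcripts changed, 1800 as reported, were 428 with no filter and 374 to 1857 with one library left out. Of the transcripts of the 29 genes 4 fell as reported, beside 3.22% of all tested transcripts. The count was 2 under median-of-ratios scaling, 1 with no filter, 2 with a pseudocount of 0.1 and 0 to 7 with one library left out. For these settings and the replicate block the share of all transcripts that fell is not given, so the counts say nothing particular to the 29 genes. The cause of the differences between settings was not tested. Estimates that changed sign, none of which passed the test in the setting named, were those of POLR3D (0.0922 with protein-coding transcripts only), POLR3GL (-0.0354 to 0.132 with one library left out, -0.0354 without hypoxia replicate 2), BRF1 (-0.0285 to 0.0414 with one library left out, -0.0285 without hypoxia replicate 3, -0.0116 with estimated reads, -0.0611 with the GC trend removed), POLR2L (-0.15 with protein-coding transcripts only, -0.000525 with estimated reads, -0.00688 with the GC trend removed) and RPTOR (-0.17 with protein-coding transcripts only).

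No pairing of the libraries by replicate number was seen: deviations from the group means correlated at 0.09, 0.03 and -0.23 between libraries of the same number. Between libraries of different numbers they correlated at -0.25 to 0.20. With 3 libraries per group this cannot exclude a pairing. With the replicate block, 15 of the 29 genes fell, beside 22.4% of all, and 1 rose, 549 transcripts changed in all and 0 transcripts of the 29 genes fell (limma; 20 had an unadjusted p under 0.05).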
